A study of Mus musculus with 3 samples.

Results

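The neuronal cytoskeleton and RNA-binding markers are 10 genes taken by symbol (Tubb3, Map2, Dcx, Stmn2, Stmn3, Gap43, Elavl3, Elavl4, Rbfox3 and Celf4) out of 22180 genes named on the array, and all 10 were measured, each by 1 probe set. They are used to recognise neurons, and here their levels were compared between astrocytes and fibroblasts. Induced astrocytes (iAs) came from mouse embryonic fibroblasts (MEFs) that carry a GFP reporter under the GFAP promoter. They had been treated for 25 days with VCSTO, a mixture of OAC1, tranylcypromine, CHIR99021, valproic acid and SB-431542, and were sorted for GFP, so they represent the GFAP-positive fraction of the treated culture. Primary astrocytes (pAs) were cultured from the cortex at postnatal day 2, with no compound, and no sort is described for them. MEFs were untreated cells from E13.5 embryos. Whether the cells of the MEF array carried the reporter is not given in the sources used here. RNA of each cell type was hybridized to 1 Affymetrix Mouse Gene 2.0 ST array, so without replicates the differences between cell types are given untested. Values are log2 expression after RMA, the authors' normalization. A gene is called changed between cell types from a fold of 1.5 upward, which is 0.58 on the log2 scale, and a fold whose lower level lay under the median of all probe sets on that array is counted from this median and written as at least that fold. Counts of genes that rose or fell use the deposited values, and the count from the medians is given where it differs.

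Microtubules of neurites are built from tubulin, stabilised by microtubule-associated proteins such as MAP2 and doublecortin, and taken apart by stathmins. Class III beta-tubulin (Tubb3), recognised by the TUJ1 antibody, is the tubulin most used to mark young neurons. Neurons also hold their own RNA-binding proteins of the ELAVL, RBFOX and CELF families, which control splicing, stability and translation of messenger RNA, and NeuN, the standard nuclear marker of mature neurons, is the product of Rbfox3. Several of these genes are also read in glia and progenitors, and in non-neuronal cells many neuronal genes are held down by the repressor REST and its partners.

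The start regions of 4 markers are printed because these genes show the patterns described below: Stmn3, Tubb3 and Elavl3 were higher in iAs than in pAs, and Map2 was higher in both kinds of astrocyte than in MEFs. Each window holds 250 bases before and 50 after the RefSeq start in GRCm38.p6, and capitals mark matches on either strand. The letters searched were GGGCGG (the GC box), CAGCTG (an E-box), CAGATG (an E-box also), CACCTG (the other E-box searched) and TATAAA (the TATA box).
Stmn3, chr2:181314451-181314750, - strand: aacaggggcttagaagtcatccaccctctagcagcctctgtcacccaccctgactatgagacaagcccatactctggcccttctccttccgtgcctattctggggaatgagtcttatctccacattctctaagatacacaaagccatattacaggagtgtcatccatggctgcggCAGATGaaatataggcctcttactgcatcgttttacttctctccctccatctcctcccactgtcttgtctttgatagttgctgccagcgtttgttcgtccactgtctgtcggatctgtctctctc
Tubb3, chr8:123411303-123411602, + strand: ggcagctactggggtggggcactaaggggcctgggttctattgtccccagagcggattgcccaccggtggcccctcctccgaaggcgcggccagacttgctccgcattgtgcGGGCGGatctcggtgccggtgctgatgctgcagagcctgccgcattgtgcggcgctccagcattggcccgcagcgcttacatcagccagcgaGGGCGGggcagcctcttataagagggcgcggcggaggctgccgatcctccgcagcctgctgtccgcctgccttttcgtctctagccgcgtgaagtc
Elavl3, chr9:22051974-22052273, - strand: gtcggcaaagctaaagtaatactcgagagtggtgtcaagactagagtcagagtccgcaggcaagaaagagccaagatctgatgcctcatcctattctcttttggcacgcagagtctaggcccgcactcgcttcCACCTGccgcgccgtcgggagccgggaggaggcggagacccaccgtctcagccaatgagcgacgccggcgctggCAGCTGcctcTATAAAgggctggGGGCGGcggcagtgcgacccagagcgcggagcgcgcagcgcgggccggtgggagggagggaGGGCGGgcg
Map2, chr1:66175079-66175378, + strand: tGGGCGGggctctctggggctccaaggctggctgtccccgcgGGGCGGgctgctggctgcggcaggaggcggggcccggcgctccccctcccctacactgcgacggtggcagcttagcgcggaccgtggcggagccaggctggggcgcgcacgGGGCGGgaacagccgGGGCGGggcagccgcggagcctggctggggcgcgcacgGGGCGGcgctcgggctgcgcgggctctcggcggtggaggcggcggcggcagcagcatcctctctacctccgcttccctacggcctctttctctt
RefSeq windows were matched by symbol for 7 of the 10 markers, as 11 windows, of which 2 of Elavl4 and both of Dcx overlap. Stmn2, Gap43 and Celf4 had no window, so their start regions were not searched. The GC box stood in the windows of Tubb3 (2 matches), Elavl3 (2) and Map2 (5), and in 35.7% of all 32851 windows. The window of Stmn3 did not hold it and had 1 match to CAGATG, found in 17.2% of all windows. Elavl3 had a match each to CAGCTG (16.3% of all windows), CACCTG (20.2%) and TATAAA (13.6%). The letters TTCAGCACC, the left part of the REST site, were searched as well and were in 0 of the 11 windows and in 0.371% of all windows. With a match this rare, its absence from 11 windows says nothing of whether the markers have REST sites. Sequence outside the windows was not searched. CG dinucleotides numbered 6 in the window of Stmn3, 26 in Tubb3, 29 in Elavl3 and 37 in Map2, against a median of 7 over all windows. Above this median lay 4 of the 11 windows, those of Tubb3, Elavl3 and Map2 and 1 of Elavl4, with 23. The windows are not separate genes, since the rest are further windows of Elavl4, both of Dcx, and those of Stmn3 and Rbfox3. These matches are descriptions of the letters.

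The deposited values spanned 2.17 to 14.37 in iAs, 1.88 to 14.37 in pAs and 1.98 to 14.37 in MEFs, and the array medians were 6.59 in iAs, 6.57 in pAs and 6.53 in MEFs. Gfap, the astrocyte filament gene whose promoter drove the sorted reporter, stood at 11.72 in iAs, 13.26 in pAs and 7.80 in MEFs. Of 10 astrocyte markers, 2 rose and 5 fell in iAs relative to MEFs (4 fell counted from the medians), while 9 rose and none fell in pAs. By real-time PCR the study reports high Slc1a2, Slc1a3, Aqp4 and Aldh1l1 in VCSTO-treated cells relative to MEFs. It does not state whether those cells were sorted. On these arrays iAs differed from MEFs by -3.14 for Slc1a3, -0.99 for Aldh1l1 and -0.98 for Aqp4 (-0.21 from the median). Slc1a2 was equal in both, under the array medians. The list summed, on a log2 scale, to 13.06 in iAs, 15.42 in pAs and 12.73 in MEFs. Gfap is among the 2 that rose and is part of each sum. Since iAs were sorted on its promoter, the higher sum in iAs than in MEFs is no result about astrocyte markers as a set. S100b, another astrocyte marker, stood at 10.31 in iAs, 7.61 in pAs and 6.40 in MEFs. Of 10 fibroblast markers, 9 fell in iAs and 10 in pAs, among them Dcn, a proteoglycan, at 7.98 in iAs, 9.91 in pAs and 12.96 in MEFs, and Lum, its relative, at least 21.3-fold below MEFs in iAs and at least 21.6-fold below them in pAs. The fibroblast list summed to 13.46 in iAs, 11.20 in pAs and 15.41 in MEFs. In RNA from many cells together, fewer cells that express a gene and less of its RNA per cell cannot be told apart.

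Relative to MEFs, 5 of the 10 markers were higher in iAs and 0 were lower (4 and 0 counted from the medians, without Elavl4, and 1 lower, Gap43, under either scaling alternative), whereas 2 were higher and 2 lower in pAs. Stmn2, Map2, Stmn3, Celf4 and Elavl4 were the 5 in iAs, led by Stmn2 at 4.78-fold and Stmn3 at 3.59-fold. In pAs, Stmn2 was 7.48-fold and Map2 2.44-fold higher, and Tubb3 was 3.73-fold and Gap43 1.72-fold lower. Among all named genes, 18.9% passed 1.5-fold between iAs and MEFs, 8.84% upward and 10% (2222 genes) downward. Between pAs and MEFs 23.0% passed it, 12.0% upward and 11.0% downward. Depending on the comparison, 26.2% to 29.9% of named genes had identical values on the 2 arrays compared, and no marker had. Such genes cannot pass the threshold and pull the median over all named genes to 0. The markers therefore cannot be set directly against the shares and medians of all named genes. The median difference of the 10 markers was 0.58 for iAs minus MEFs and -0.19 for pAs minus MEFs, against 0.00 over all named genes in both. Set directly against pAs, 5 markers were higher in iAs (Tubb3, Stmn3, Celf4, Elavl3 and, with the same limit, Elavl4) and 2 lower (Stmn2 and Map2), where 19.8% of all named genes passed the threshold, 8.67% upward and 11.1% downward, and the median of the 10 was 0.46 against 0.00. Over the 14476 named genes that reached the median of an array, a background chosen after the values were seen, 12.6% rose and 14.8% fell in iAs relative to MEFs, 17.6% and 16.1% in pAs relative to MEFs, and 12.3% and 16.4% in iAs relative to pAs. At a threshold of 2-fold, 2 markers were higher in iAs than in MEFs and 2 higher in iAs than in pAs, with none lower in either, and in pAs 2 were higher and 1 lower than in MEFs. The shares of all named genes at 2-fold were 4.81% upward and 5.05% downward for iAs against MEFs, 6.90% and 6.13% for pAs against MEFs, and 4.98% and 5.79% for iAs against pAs.

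**Figure D1:**
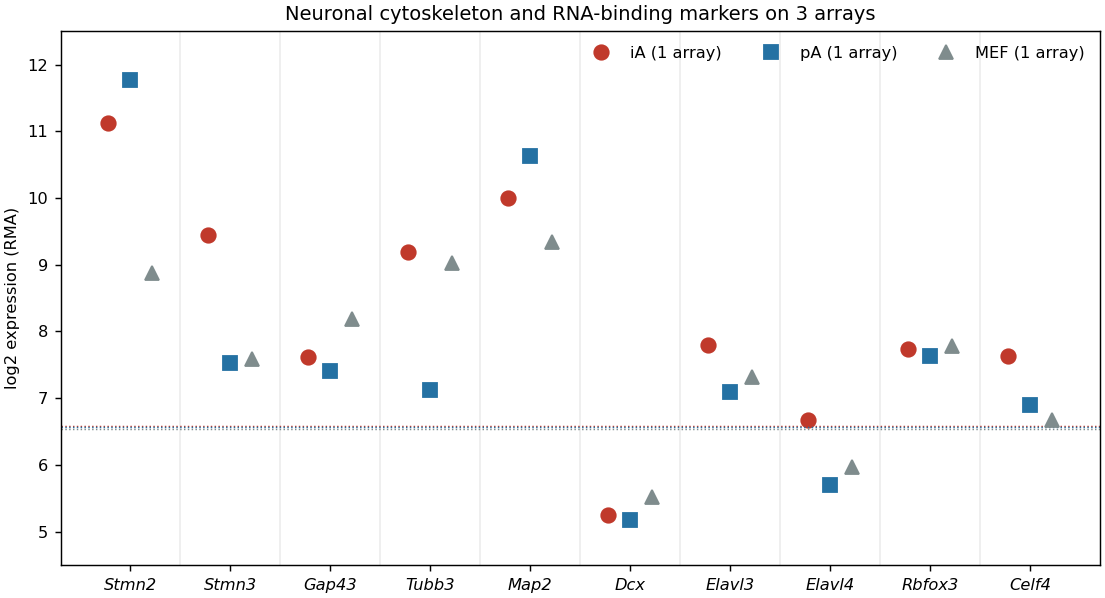
Log2 expression after RMA of the 10 markers (vertical axis) on the array of iAs (circles), pAs (squares) and MEFs (triangles), 1 array each, so there are no error bars. Dotted lines are the medians of the 3 arrays, and levels may be compared within a gene only; Stmn3 stands at 9.44 in iAs above 7.53 in pAs and 7.59 in MEFs, and Tubb3 at 9.19 in iAs, 7.12 in pAs and 9.02 in MEFs.

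The plot of levels by array shows 4 patterns among the markers. Stmn2 and Map2 were highest in pAs, followed by iAs, and lowest in MEFs. Stmn3, Celf4, Elavl3 and Elavl4 were highest in iAs, Elavl3 by less than 1.5-fold over MEFs and Elavl4 by a secured difference under 1.5-fold. Tubb3 was set apart by its low level in pAs. Gap43 and Rbfox3 were highest in MEFs, Rbfox3 by less than 1.5-fold, as was Gap43 over iAs. Dcx, under the medians of all 3 arrays, has no order. Counted over the deposited values of all 10, Dcx included, iAs held the highest level of 5 markers, pAs of 2 and MEFs of 3. Of all named genes, 20.5% were highest in iAs alone, 24.0% in pAs alone and 24.6% in MEFs alone. Genes tied for the highest level are in none of these shares, whereas no marker was tied. The shares are therefore lower than they would be among untied genes, and the counts cannot be set against them directly.

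Among the microtubule genes, Tubb3 measured, in log2, 9.19 in iAs, 7.12 in pAs and 9.02 in MEFs. The RNA for the TUJ1 antigen was thus near its fibroblast level in iAs and low in pAs alone. It was 4.21-fold above pAs in iAs, with a difference of 0.17 between iAs and MEFs. Only 2.39% of named genes fell further than Tubb3 in pAs relative to MEFs. Protein was not measured on these arrays, and the study reports that staining found neither TUJ1 nor MAP2 in its MEFs. Map2, the dendritic microtubule-associated protein, stood at 10 in iAs, 10.63 in pAs and 9.34 in MEFs. It exceeded its MEF level by 1.58-fold in iAs and 2.44-fold in pAs, and was 1.55-fold lower in iAs than in pAs. That last difference, -0.63 on the log2 scale, passed under 1.5-fold at -0.56 when the arrays were centred on their brighter probe sets. Dcx, which encodes the doublecortin of migrating neurons, was at 5.25 in iAs, 5.17 in pAs and 5.52 in MEFs. All 3 levels of Dcx lay below the medians of their arrays, so no difference between the cell types can be read for it.

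The relatives of these genes did not move as a block. Of 13 measured tubulins, 1 rose and 1 fell in iAs relative to MEFs, while 2 rose and 3 fell in pAs, with median differences of -0.10 in iAs and 0.00 in pAs. Tubb4a, a beta-tubulin of brain, exceeded MEFs by 3.16-fold in iAs and 4.06-fold in pAs. Tubb6, a beta-tubulin of many tissues, was below MEFs by 3.87-fold in iAs and 4.68-fold in pAs. Tubb2b, another beta-tubulin of neurons, differed by -0.34 in iAs and was 1.61-fold higher in pAs, and Tubb2a differed by 0.04 and 0.50. Tubb5, the beta-tubulin of dividing cells, differed by -0.57 in iAs, and in pAs it stood 1.80-fold below MEFs. Tubb1, a beta-tubulin of platelets, and Tubb4b had the same value on all 3 arrays. Of 18 microtubule-associated proteins, a list that holds Map2 and Dcx, 7 rose (6 from the medians) and none fell in iAs, while 5 rose and none fell in pAs, with median differences of 0.40 in iAs and 0.17 in pAs. Dclk2, a kinase with doublecortin domains, exceeded MEFs by 4.29-fold in iAs and 5.01-fold in pAs. Its relative Dclk1 differed by -0.25 in each. Mapre3, a protein of growing microtubule ends, exceeded them by 2.19-fold in iAs and 2.98-fold in pAs. Map1b, which is expressed early in axons, was 2.14-fold higher in iAs with a difference of 0.15 in pAs, and Mapt, which encodes the axonal protein tau, differed by 0.23 in iAs and 0.19 in pAs.

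Among the stathmins and growth cone proteins, Stmn2, whose product SCG10 destabilises microtubules in growth cones, measured, in log2, 11.12 in iAs, 11.77 in pAs and 8.87 in MEFs. It stood far above MEFs in both kinds of astrocyte. Its difference from MEFs was 2.26 in iAs, exceeded by 1.18% of named genes, and 2.90 in pAs, exceeded by 0.830%. Between the astrocytes it was 1.57-fold lower in iAs than in pAs, a log2 difference of -0.65 that became -0.58, within 1.5-fold, after centring on the brighter probe sets. Stmn3, whose product SCLIP acts on microtubules in neurites, stood at 9.44 in iAs, 7.53 in pAs and 7.59 in MEFs. Here iAs alone were high, at 3.59-fold above MEFs and 3.75-fold above pAs, and pAs and MEFs differed by -0.06. A larger difference between iAs and MEFs was found for 1.74% of named genes. Gap43, a growth cone protein that is also made in glia, measured 7.61 in iAs, 7.41 in pAs and 8.19 in MEFs. MEFs held the highest level of Gap43, with differences of -0.58 in iAs, just inside the threshold and past it at -0.60 after quantile normalization and -0.586 after centring, and -0.78 in pAs, called lower at 1.72-fold.

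The other stathmins differed from this pair. Stmn1, the stathmin of dividing cells, stood 2.15-fold below its MEF level in iAs, differed by -0.34 in pAs, and was 1.70-fold lower in iAs than in pAs, and Stmn4 differed by 0.14 in iAs and -0.08 in pAs. Basp1, a growth cone protein related to Gap43 in function, was below MEFs by 2.22-fold in iAs and 2.61-fold in pAs. Over the whole list of 16 stathmins and growth cone proteins, which holds Stmn2, Stmn3 and Gap43, 4 rose and 2 fell in iAs, while 4 rose and 4 fell in pAs, with median differences of 0.07 in iAs and -0.15 in pAs.

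**Figure D2:**
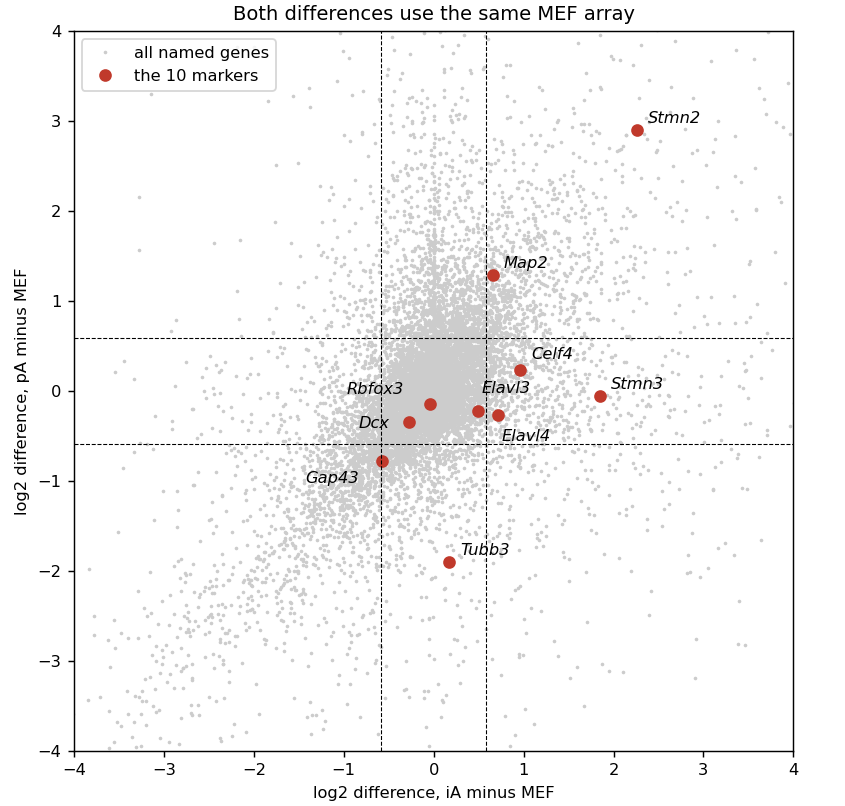
Log2 differences of all 22180 named genes (grey) and the 10 markers (red), iAs minus MEFs on the horizontal axis and pAs minus MEFs on the vertical axis. Dashed lines mark 1.5-fold; 156 named genes lie outside the axes, which end at 4, and since both differences use the same MEF array the shape of the grey cloud is no result. Stmn2 stands at 2.26 and 2.90, Stmn3 at 1.85 and -0.06 and Tubb3 at 0.17 and -1.90.

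Among the RNA-binding markers, Elavl3 and Elavl4 encode HuC and HuD, neuronal proteins that bind AU-rich elements in messenger RNA. Elavl3 measured, in log2, 7.80 in iAs, 7.09 in pAs and 7.31 in MEFs, highest in iAs. It differed by 0.49 between iAs and MEFs, under the threshold, and was 1.64-fold higher in iAs than in pAs. Elavl4 stood at 6.68 in iAs, 5.70 in pAs and 5.97 in MEFs, and its levels in pAs and MEFs lay below the array medians. The deposited values put the iA level of Elavl4 1.64-fold above MEFs and 1.97-fold above pAs, but counted from the medians the rise was at least 1.11-fold over MEFs and at least 1.08-fold over pAs, so only a difference under 1.5-fold is secured. With an offset of 32 on the linear scale the difference from MEFs was 0.51, no longer called.

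Rbfox3, which encodes NeuN, was at 7.74 in iAs, 7.63 in pAs and 7.78 in MEFs. The range over the arrays was 0.15, the smallest of the 10 markers, so the marker of mature neurons showed no difference of 1.5-fold between any cell types. Celf4, a translational and splicing regulator of excitatory neurons, measured 7.63 in iAs, 6.90 in pAs and 6.67 in MEFs. It was highest in iAs, at 1.95-fold above MEFs and 1.67-fold above pAs, and pAs and MEFs differed by 0.23. It ranked 1111 among the 22180 named genes by the difference of iAs from MEFs.

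Within these families the largest difference belonged to a gene outside the marker set. Celf3, a neuronal splicing regulator, stood at 9.42 in iAs, 6.07 in pAs and 6.42 in MEFs, so that iAs exceeded MEFs by at least 7.40-fold and pAs by at least 7.24-fold. Celf2 differed by 0.26 in iAs and exceeded MEFs by 1.54-fold in pAs, and Celf1, Celf5 and Celf6 differed from MEFs by less than 1.5-fold in each. Elavl2, which encodes the neuronal protein HuB, stood in iAs 1.62-fold above MEFs and 2.01-fold above pAs. Elavl1, which encodes the HuR found in most cells, differed by -0.48 in iAs and -0.26 in pAs. Rbfox1 differed by -0.02 in each, and Rbfox2, the member of that family read in many tissues, by -0.22 in iAs, and in pAs it stood 2.01-fold below MEFs. Of 20 neuronal RNA-binding proteins, a list that holds all 4 markers of this kind, 6 rose (5 from the medians, without Elavl4) and none fell in iAs, and 6 rose and none fell in pAs, with median differences of 0.31 in iAs and 0.01 in pAs. Cpeb1, a regulator of translation through cytoplasmic polyadenylation, exceeded MEFs by 2.82-fold in iAs and 3.89-fold in pAs. Of 15 widely expressed RNA-binding relatives, 2 rose and 2 fell in iAs, while 3 rose and 4 fell in pAs, with medians of -0.22 in iAs and -0.26 in pAs. Msi2, a Musashi protein of progenitors, exceeded MEFs by 2.87-fold in iAs and 4.09-fold in pAs, and Qk, a splicing regulator of glia, by 1.91-fold in iAs and 2.41-fold in pAs. Mbnl3, a splicing factor of the muscleblind family, was below MEFs by 3.21-fold in iAs and 4.47-fold in pAs, and Khdrbs1, which encodes the splicing regulator SAM68, by 1.83-fold in iAs and 1.68-fold in pAs.

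**Figure D3:**
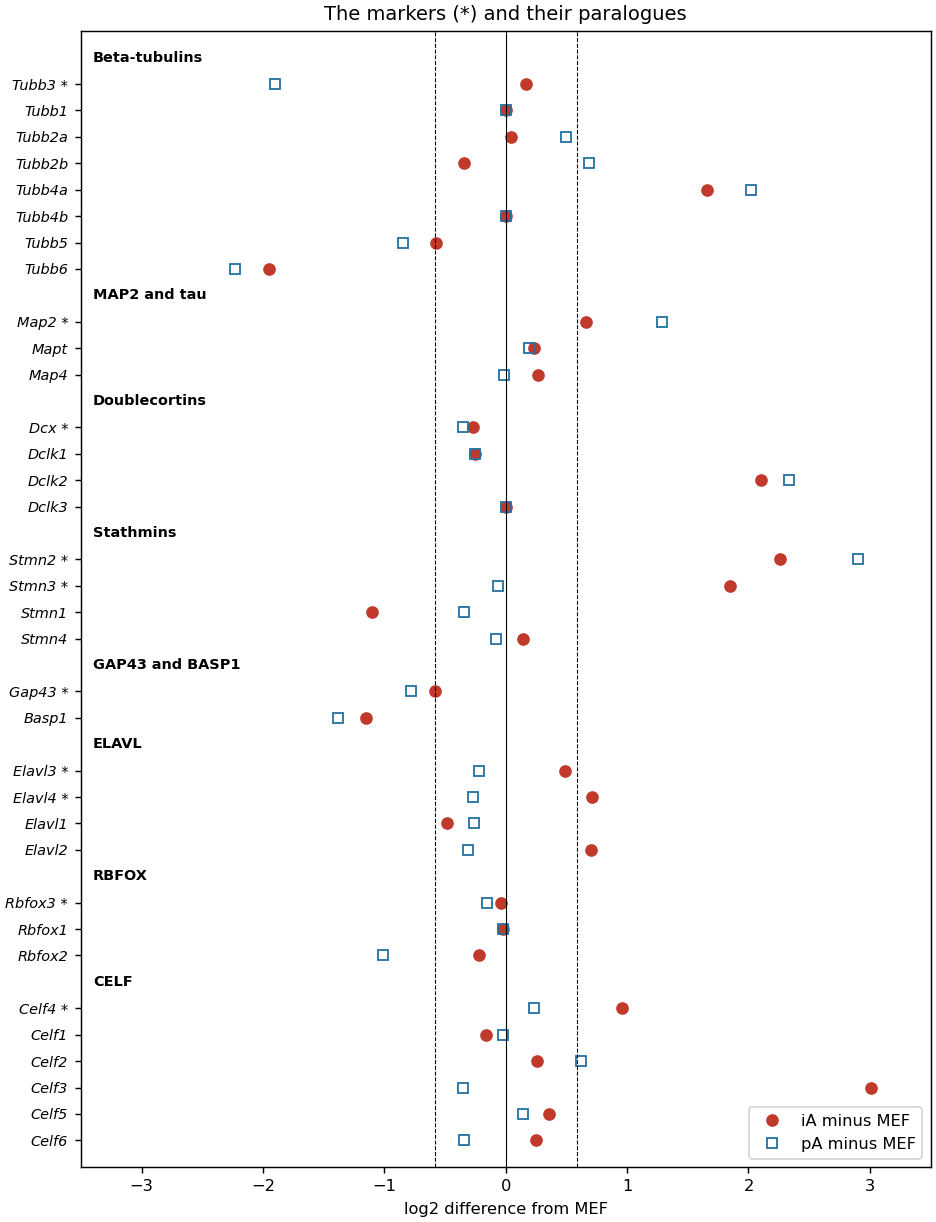
Log2 difference from MEFs (horizontal axis) of each marker (*) and its paralogues, iAs minus MEFs as filled circles and pAs minus MEFs as open squares, 1 array each. Dashed lines mark 1.5-fold. Stmn2, Map2, Dclk2 and Tubb4a lie right of the line for both astrocytes, and Celf3, Stmn3, Celf4, Elavl2 and Elavl4 for iAs alone. Deposited values are drawn, so genes under the array medians, such as Celf3 in pAs and MEFs, have only a bound.

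Stmn2 had the widest range of the 10 markers over the arrays, 2.90. The 5 named genes whose 3 centred log2 levels lay nearest to it, by Euclidean distance among 13581 genes that reached an array median, were Cyfip2, Snx32, Celsr2, Ampd3 and Gpm6b, at distances of 0.081 to 0.101. Gpm6b, a membrane proteolipid of neurons and glia, stood at 12.57 in iAs, 13.24 in pAs and 10.20 in MEFs, and Cyfip2, a subunit of the WAVE complex that drives actin assembly, at 10.08 in iAs, 10.79 in pAs and 7.94 in MEFs. The pattern rests on 3 arrays and says nothing of shared control.

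Of the axonal genes outside the marker set, 9 of 16 on a list of neurofilaments and motors rose (8 from the medians) and 1 fell in iAs relative to MEFs, while 3 rose and 2 fell in pAs, with median differences of 0.82 in iAs and 0.01 in pAs. Nefl, the light neurofilament chain, stood at 8.54 in iAs, 6.13 in pAs and 6.05 in MEFs, so that iAs exceeded MEFs by at least 4.03-fold and pAs by at least 3.94-fold. Kif5c, a kinesin of axonal transport, exceeded MEFs by 3.74-fold in iAs and 3.92-fold in pAs. The gene of this list that fell in iAs was Kif21b, a kinesin of neurites, below MEFs by 1.91-fold in iAs and 2.32-fold in pAs. Of 26 other neuron markers, 9 rose and 2 fell in iAs (8 and 1 from the medians), while 5 rose and 3 fell in pAs, with medians of 0.10 in iAs and 0.00 in pAs. L1cam, an adhesion molecule of axons and Schwann cells, stood at 12.22 in iAs, 6.84 in pAs and 7.88 in MEFs, 20.3-fold above MEFs in iAs, and Snap25, of the vesicle fusion machinery, was highest in iAs as well, at 11.62, with 6.05 in pAs, and was 32.6-fold above MEFs. Vsnl1, a neuronal calcium sensor, fell in iAs, with a difference of -0.93, and the sodium channel gene Scn2a was the other counted lower, but its iA level of 5.98 lay below the array median and no fall can be read from there. These lists were drawn up with earlier results of these arrays known, so their counts are no independent evidence of a direction.

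**Figure D4:**
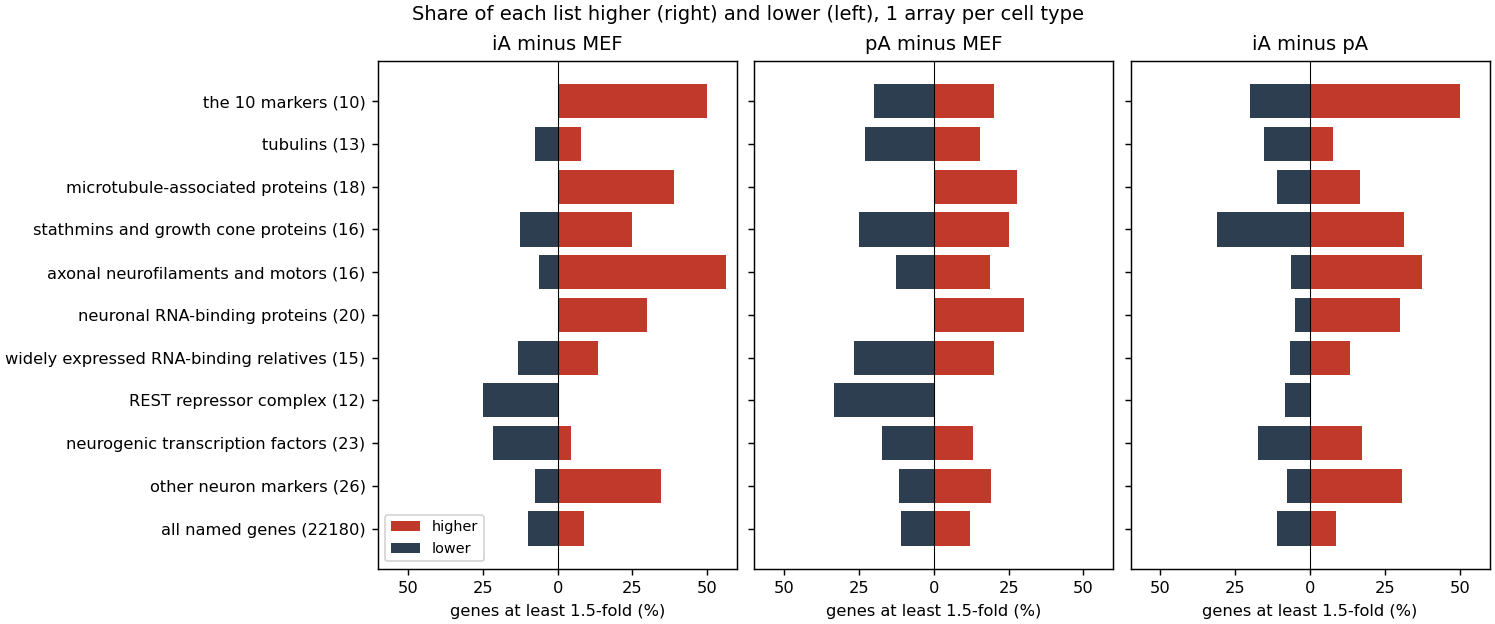
Share of each list (number measured in parentheses) at least 1.5-fold higher, drawn to the right in red, and lower, drawn to the left in dark blue, in percent and by deposited values, with 1 panel for each of the 3 comparisons. The bottom bar is the same share over all 22180 named genes, 8.84% upward and 10% downward in the panel of iAs against MEFs; the 10 markers are also members of the lists on their families.

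The known regulators of neuronal genes were measured beside the markers. Rest, the repressor that holds neuronal genes down in other cells, measured 8.12 in iAs, 8.12 in pAs and 8.37 in MEFs, a difference of -0.25 in each. Its iA and pA values were identical, as were those of 26.2% of all named genes. Of 12 measured genes of the REST repressor complex, 3 fell and none rose in iAs, while 4 fell and none rose in pAs, with medians of -0.31 in iAs and -0.17 in pAs. Rcor2, a partner of the histone demethylase LSD1, was below MEFs by 2.74-fold in iAs and 3.71-fold in pAs, and Hdac2, a histone deacetylase, by 1.61-fold in each. Kdm1a, which encodes LSD1, the enzyme that tranylcypromine inhibits, differed by -0.58 in iAs, within 1.5-fold, and by -0.10 in pAs. Of 23 measured neurogenic transcription factors, 1 rose and 5 fell in iAs (4 fell from the medians), while 3 rose and 4 fell in pAs (3 from the medians), with medians of -0.01 in iAs and -0.03 in pAs, and 12 lay below the median of the iA array. The factor that rose in iAs was Dlx2, of forebrain interneurons and the neural crest, at 10.79 in iAs, 8.66 in pAs and 8.80 in MEFs. Ebf1, a factor of neurons and mesenchyme, was below MEFs by 8.42-fold in iAs and by at least 20.5-fold in pAs, and its relative Ebf3 by 5.20-fold in iAs and 6.78-fold in pAs.

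Markers of other cell types moved on the same arrays. Of 8 measured Schwann and neural crest markers, 6 rose and 1 fell in iAs, none rose and 6 fell in pAs, and their summed level, on a log2 scale, was 14.47 in iAs, 12.31 in pAs and 12.45 in MEFs. Cdh19, a cadherin of Schwann cell precursors, was 36.4-fold above MEFs in iAs with a difference of -0.26 in pAs, and Sox10, the transcription factor of neural crest and its glia, stood at 11.53 in iAs, 7.18 in pAs and 7.91 in MEFs, and none of these markers lay below an array median. The gene that fell in iAs was Egr2, a factor of myelination, at 7.71 in iAs, 7.35 in pAs and 9.01 in MEFs. Of 11 measured neuroendocrine markers, 6 rose (5 from the medians) and none fell in iAs, while 4 rose and none fell in pAs, and the list summed to 13.01 in iAs, 13.81 in pAs and 11.45 in MEFs. Scg2, a granule protein, was 4.92-fold above MEFs in iAs with a difference of 0.09 in pAs, and Scg3, another, exceeded MEFs by at least 4.35-fold in iAs and by at least 36.8-fold in pAs. Of 10 neural progenitor markers, 2 rose and 1 fell in iAs (none from the medians), while 7 rose and none fell in pAs, and the list summed to 13.78 in iAs, 14.67 in pAs and 13.40 in MEFs. Sox2, a factor of neural progenitors, exceeded MEFs by 7.78-fold in iAs and 33.8-fold in pAs, and Nes, the progenitor filament nestin, stood at 10.24 in iAs, 11.19 in pAs and 9.32 in MEFs. Of 9 measured oligodendrocyte lineage markers, a list that shares Sox10 with that of Schwann cells, 3 rose and 1 fell in iAs, while 3 rose and 3 fell in pAs, and the list summed to 12.93 in iAs, 12.21 in pAs and 12.65 in MEFs. Cnp, an enzyme of myelin, exceeded MEFs by 4.96-fold in iAs and 5.15-fold in pAs, and the gene that fell in iAs was Pdgfra, a receptor of precursors and fibroblasts, at 10.56 in iAs, 7.07 in pAs and 12.13 in MEFs. The part of these cell types in the levels of the 10 markers was not tested.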

How the data were processed

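RNA of 3 samples was measured, 1 array each of iAs, pAs and MEFs. The authors deposited log2 values for 41345 probe sets, made by RMA in Partek Genomics Suite, which corrects background, equalizes the distributions of the arrays and summarizes the probes of each probe set. The submitters' processing notes also name MAS5, and the roles are not divided there. Of all probe sets, 20.1% had the same value on all 3 arrays. Raw intensities were not used here, so background correction could not be varied, and with 1 array per cell type the number of arrays limits the precision.

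Groups follow the sample titles. The labels give the compound treatment for every sample, and the study's methods apply it to iAs only. Genes were named from GEO's platform annotation, from 23521 probe sets with exactly 1 symbol, and a gene with several probe sets is their mean. Entrez IDs of 23328 of these were found in RefSeq (GRCm38.p6), which gave no other symbol for any. Differences in log2 value were computed with Python 3.11.15, numpy 2.4.6 and pandas 2.3.3, drawn with matplotlib 3.10.9, and called at 1.5-fold, the threshold of the study's methods. No p-value is given. Named genes are the 10 markers, their close paralogues, Rest, Kdm1a, up to 2 genes with the largest increase and 2 with the largest decrease in iAs from each of 15 further lists, and the 5 genes most like the leading marker. Those 5 were sought among genes reaching an array median whose symbols are no placeholders. The markers and lists were chosen with earlier results of these data known. The alternatives were quantile normalization, centring, an offset of 32, the brightest probe set, a threshold of 2-fold, a filter on dim genes and raising low levels to the array median. The 2-fold background and the counts of the lists from the medians were added after seeing the data. The computation was tested on simulated arrays.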

Additional observations from a re-analysis of the deposited data

Results flagged for a closer look

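By the deposited values, no marker of the set was at least 1.5-fold above MEFs in one kind of astrocyte and at least 1.5-fold below them in the other. Of the other genes named, 7 were, each on 1 array per cell type, and the difference between the astrocytes was not tested. The share of all named genes with this pattern was not counted, so neither number is a result about the markers. Most of the 7 were named for the size of their change in iAs, and Ank3 after its values were seen. Genes of the lists that are not named had the pattern too, such as Ngfr (3.24 in iAs, -1.69 in pAs) and Aldh1l1 (-0.99 in iAs, 2.85 in pAs). L1cam differed from MEFs by 4.34 in iAs and -1.04 in pAs on the log2 scale. Sox10 differed by 3.61 in iAs and -0.73 in pAs, and Ank3 by 1.45 in iAs and -1.44 in pAs. The reverse held for Slc1a3, the glutamate transporter GLAST, at -3.14 in iAs, or at least 5.39-fold lower counted from the array median, and 3.30 in pAs, and for Sox9, a factor of gliogenesis, at -1.27 in iAs and 2.27 in pAs. The study's real-time PCR, in contrast, found Slc1a3 and Aldh1l1 high in VCSTO-treated cells relative to MEFs. Prom1, a membrane protein of progenitors, differed by -0.61 in iAs and 3.25 in pAs, and Scn2a by -0.59 in iAs and 0.67 in pAs. The iA levels of both lay below the array median, and counted from it neither was 1.5-fold lower in iAs, at -0.58 for Prom1 and 0.00 for Scn2a.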

How the results depend on the processing

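The 10 markers gave 30 differences over the 3 comparisons, each computed under 4 alternatives. Of these 120 values, 115 stayed on their side of 1.5-fold and none changed direction. The 115 include 30 values from the brightest probe set that could not move, since each marker has 1 probe set. The offset on the linear scale can shrink a difference but cannot reverse it. Only quantile normalization and centring could therefore have changed a direction. Gap43 became lower in iAs than in MEFs after quantile normalization (-0.60) and centring (-0.586), and the other changes, of Map2, Stmn2 and Elavl4, stand in the report. No scaling moved the median of all named genes by over 0.1. A threshold of 2-fold reduced the markers called from 5 to 2 for iAs minus MEFs and from 7 to 2 for iAs minus pAs. With levels raised to the array median, 4 markers were called for iAs minus MEFs and 6 for iAs minus pAs. Quantile normalization named the same 5 genes as most like Stmn2. Dim signal limits Dcx and Elavl4.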

Other observations

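Further axonal and growth cone genes of the lists, singled out after their values were seen, differed between the 2 kinds of astrocyte. Ank3, which encodes the ankyrin G scaffold of the axon's initial segment, stood at 11.02 in iAs, 8.12 in pAs and 9.56 in MEFs. Marcks, a membrane-bound actin regulator, stood at 12.02 in iAs, 10.21 in pAs and 11.65 in MEFs, low in pAs as Tubb3 was. Crmp1, a collapsin response mediator of growth cones, stood at 9.67 in iAs, 7.58 in pAs and 8.11 in MEFs, high in iAs as Stmn3 was. Its relative Dpysl5 was highest in pAs, at 8.56 in iAs, 9.61 in pAs and 7.36 in MEFs.

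None of the 10 markers had the same value on any 2 arrays. Of all named genes, 29.9% had identical values in iAs and MEFs, 27.3% in pAs and MEFs and 26.2% in iAs and pAs. Rest, Dclk1, Rbfox1 and Hdac2 had identical values in iAs and pAs, so their differences from MEFs were the same in both.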
